A study of Mus musculus with 6 samples.

Results

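The genes described here carry out presentation of peptides on MHC class I molecules. They are 10 genes: Psmb8, Psmb9, Psmb10, Tap1, Tap2, Tapbp, Pdia3, H2-K1, H2-D1 and B2m, found by name among the 23284 genes listed for each library, and all 10 were matched. Nearly every nucleated cell cuts its own proteins into peptides and shows them on class I molecules to CD8 T cells. Interferons induce Psmb8, Psmb9 and Psmb10, which take the place of the usual catalytic subunits to form the immunoproteasome, whose cuts favour peptides that class I molecules can hold. Tap1 and Tap2 form the transporter that carries peptides into the endoplasmic reticulum, tapasin (Tapbp) and the disulfide isomerase ERp57 (Pdia3) help to load them, and the heavy chains H2-K and H2-D with beta-2 microglobulin (B2m) display them. Monocytes and dendritic cells use the same machinery to present antigens they have taken up.

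The RNA came from skull-vault bone (calvaria) of CX3CR1-EGFP mice, in which green fluorescent protein reports use of the fractalkine receptor locus, after a sort for EGFP+ cells. All 6 libraries came from mice given lipopolysaccharide (LPS) at the calvarial periosteum and sampled 5 days later, so no group without LPS is compared here. Of these, 3 libraries had LPS with 10 mg/kg CTLA4-Ig (abatacept), a fusion of the CTLA-4 outer domain with an antibody Fc part that blocks CD80 and CD86, and 3 had LPS with 10 mg/kg whole human IgG as control. The sources used here do not give the strain background, sex, age, reporter allele copies or number of animals per library. Replicates are numbered as biological in the titles, but p-values measure only the spread between these libraries.

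The start of transcription is shown for the display genes and for the Psmb9 and Tap1 pair, because the display genes had the highest levels of the 10 and the pair shares a start region. The RefSeq promoter table of GRCm38.p6 held 9 of the 10 members, all but Tap2. The 250 bases before the start given in that table were taken for H2-K1 (chr17:34000348-34000597, minus strand), H2-D1 (chr17:35262844-35263093, plus strand) and B2m (chr2:122147437-122147686, plus strand). For H2-K1 this start lies within the gene span listed below (33996012 to 34000619), so its window lies inside that span. Psmb9 and Tap1 run away from each other, and the 225 bases between their starts (chr17:34187331-34187555) are given on the plus strand, that of Tap1. Each is written 5′ to 3′, with capitals for matches on either strand to the κB motif and to 2 interferon response motifs. The shorter of these is GAANNGAAA, and the longer is GAAA, any 2 bases and GAAA.
H2-K1: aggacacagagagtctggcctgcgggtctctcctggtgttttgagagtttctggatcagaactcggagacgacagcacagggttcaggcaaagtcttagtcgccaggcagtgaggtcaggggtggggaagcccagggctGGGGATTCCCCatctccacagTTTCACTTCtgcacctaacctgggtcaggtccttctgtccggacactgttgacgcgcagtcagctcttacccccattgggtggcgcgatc
H2-D1: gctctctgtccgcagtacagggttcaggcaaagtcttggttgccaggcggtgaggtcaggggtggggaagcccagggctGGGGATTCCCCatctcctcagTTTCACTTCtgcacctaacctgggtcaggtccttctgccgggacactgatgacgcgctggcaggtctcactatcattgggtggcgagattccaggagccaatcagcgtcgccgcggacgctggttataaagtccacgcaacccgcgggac
B2m: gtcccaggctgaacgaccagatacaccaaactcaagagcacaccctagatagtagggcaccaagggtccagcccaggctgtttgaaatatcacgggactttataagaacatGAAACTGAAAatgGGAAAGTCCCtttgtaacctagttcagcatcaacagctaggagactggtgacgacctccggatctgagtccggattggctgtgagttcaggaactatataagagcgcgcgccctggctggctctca
Psmb9 and Tap1: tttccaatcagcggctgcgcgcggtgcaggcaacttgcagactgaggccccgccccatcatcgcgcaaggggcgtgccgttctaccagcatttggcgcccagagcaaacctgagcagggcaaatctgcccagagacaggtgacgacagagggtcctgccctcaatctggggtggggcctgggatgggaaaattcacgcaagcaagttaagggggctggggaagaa
The motifs were spelled out with these sequences in view, and a match is a description, not a bound site. H2-K1 and H2-D1 were identical at 166 of 190 aligned bases (87.4%), and both held GAANNGAAA next to overlapping κB matches. B2m held the longer interferon motif and a κB match. Over 27018 promoters of the same length, 3.04% held the longer interferon motif, 6.34% GAANNGAAA and 7.01% the κB motif. The core TGACG of the cyclic AMP response element stood before 6 of the 9 members (Psmb9, Tap1, Pdia3, H2-K1, H2-D1 and B2m) and 17.9% of all promoters, and CCAAT before 7 of 9 (those 6 and Tapbp) and 34.5%. The interferon-gamma activation motif TTCNNNGAA stood before Psmb8 and 7.18% of all promoters. Psmb9 and Tap1 share most of their windows, so their matches are the same ones.

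On GRCm38, 7 members lie on chromosome 17, in the mouse MHC. Psmb9 (34182030 to 34187330), Tap1 (34187556 to 34197225), Psmb8 (34198195 to 34201454) and Tap2 (34204479 to 34216321) are neighbours there. Tapbp (33919478 to 33929290) and H2-K1 (33996012 to 34000619) lie before them and H2-D1 (35263094 to 35267497) after. Pdia3 (121413902 to 121438687) and B2m (122147687 to 122153082) are on chromosome 2 and Psmb10 (105935728 to 105938392) is on chromosome 8. In GENCODE M21 the exons of Psmb9 and Tap1 overlap each other on opposite strands. Those of Tapbp overlap Zbtb22 on the same strand, listed here at 16.8 to 20.1 FPKM, and those of Pdia3 overlap Catsper2 at 0.171 to 0.515 FPKM. Exons of Psmb8 and Tap2 overlap the antisense gene Gm20496. The library kit keeps strand, but the sources used here do not say whether counting used it, so reads of such pairs may have been split. Of the 50-base words in the longest coding transcript, 8.79% in H2-K1 and 14.3% in H2-D1 also occurred in transcripts of other genes, so these values are uncertain. The gene sharing most with H2-K1 was H2-D1, and that sharing most with H2-D1 was H2-Q1. The share was 2.001% in Tapbp, 0.861% in Tap1, 0.737% in Tap2 and 0 in Psmb8, Psmb9, Psmb10, Pdia3 and B2m.

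Values are FPKM, fragment counts scaled by transcript length and library depth. Estimated from how low values are spaced, libraries held 7993701 to 9759823 fragments. All 10 genes of the monocyte and osteoclast precursor marker list averaged 1 FPKM or more, with Csf1r at 140 to 193 FPKM. Tnfrsf11a was the lowest of the 10, averaging 1.705 FPKM over the 6 libraries, so it passed that limit only narrowly. Neutrophil transcripts were abundant in the same sorted cells, and their sums did not overlap between groups. The summed level of 16 neutrophil markers was 175350 to 241895 FPKM with CTLA4-Ig against 136242 to 155227 with control IgG, with none at 0. Most of each sum was S100a8 (54770.5 to 95526 FPKM) and S100a9 (48502.9 to 90753.4 FPKM). Of the 16 markers, 9 were higher with no overlap between groups, against 6.50% of all genes. Elane, Mpo and Prtn3 had log2 fold changes below 0. Control library 1 stood apart from the other 5: its erythroid markers summed to 14.4 FPKM against 94.7 to 148 and its stromal markers to 13.9 against 23.1 to 32.0. Its 10 monocyte markers summed to 16982 FPKM against 21889 to 23207, most of it the lysozyme gene Lyz2, and without Lyz2 to 3199 against 3028 to 3162, the highest of the 6. The counts of the members and of the lists in which it was mostly lowest are given with and without it.

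The levels of the 10 genes spanned a wide range and kept nearly 1 order in the 6 libraries. FPKM is per length, so levels can be set side by side. B2m was highest at 1998 ± 224 FPKM (SD over 6 libraries) and ranked between 30 and 71 of all genes. H2-D1 followed at 808 ± 48.8 FPKM and H2-K1 at 489 ± 37.7. Pdia3 stood at 236 ± 18.6 FPKM, Psmb8 at 174 ± 13.1 and Psmb9 at 113 ± 10.3. In each of these 6 the lowest library lay above the highest library of the next gene. Tapbp at 69.0 ± 6.37 FPKM and Psmb10 at 67.6 ± 6.63 overlapped, and so did Tap2 at 40.6 ± 3.97 and Tap1 at 40.6 ± 3.56. From transcript length and estimated depth, a library held about 610 fragments at the least (Psmb10) and 18501 at the most (B2m). On that estimate counting error was at most 4.05% per value. The coefficient of variation over the 6 libraries was 6.04 to 11.2%.

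No member passed the test between CTLA4-Ig and control IgG. Tap2 had the highest log2 fold change of the 10 at 0.21 and Pdia3 the lowest at -0.18, and these 2 alone had no overlap between groups. Limma called 0 of 10865 genes at a Benjamini-Hochberg adjusted p under 0.05 (0.00% higher and 0.00% lower), with 0.720 as the lowest adjusted value. Unadjusted limma p-values were under 0.05 in 659 genes. Of the members these included Tap2 on the higher side, where 4.09% of all genes fell, and Pdia3 on the lower side, where 1.98% fell. Libraries without overlap were found in 1 of 10 members higher and 1 of 10 lower, against 6.50% and 5.69% of all genes. With 6 members above 0 and 4 below, the median log2 fold change was 0.03, against 47.7% of genes above 0 and a median of -0.01 over all genes. Folds are on the scale of log2(FPKM + 1). The 95% confidence intervals of the 10 members lay between 0.771-fold (Psmb10) and 1.32-fold (B2m). In bulk RNA, fewer cells of a type and less RNA per cell cannot be told apart.

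**Figure D1:**
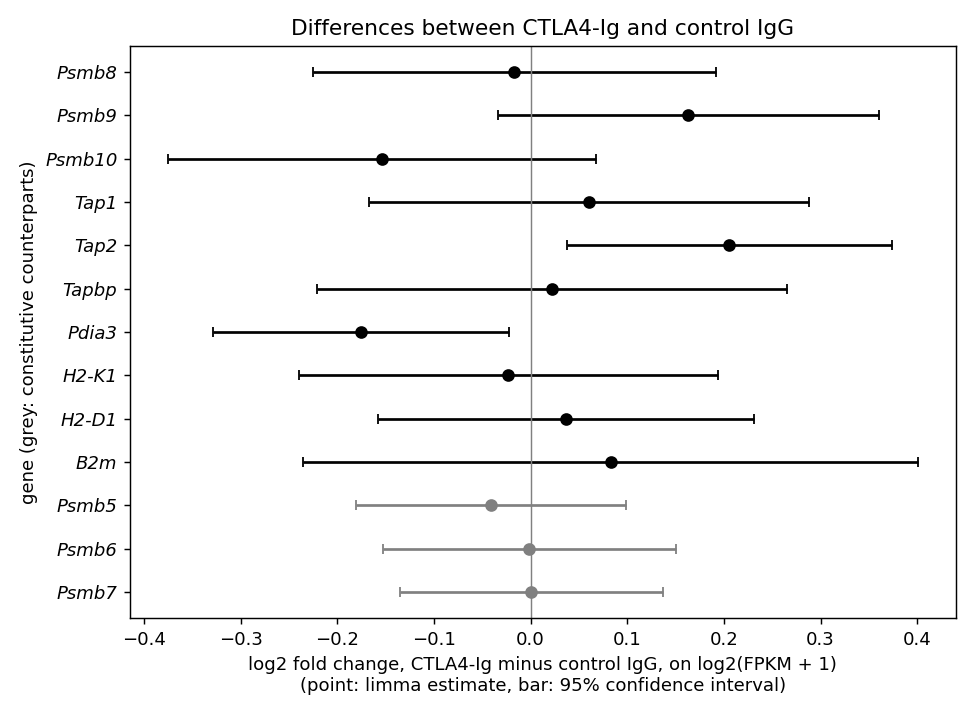
Log2 fold change of each member between CTLA4-Ig and control IgG on log2(FPKM + 1) on the horizontal axis, 1 gene per row, with points for limma's estimates and bars for 95% confidence intervals. Tap2 at 0.21 and Pdia3 at -0.18 have intervals that leave out 0 before adjustment, and the constitutive subunits Psmb5, Psmb6 and Psmb7 (grey) lie near 0.

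The display genes differed less between groups than among control libraries. H2-K1, a classical heavy chain, stood at 468, 472 and 511 FPKM in CTLA4-Ig libraries 1, 2 and 3 and at 447, 481 and 553 in control libraries 1, 2 and 3. The CTLA4-Ig values lay inside the control range, and the log2 fold change was -0.02 ± 0.09 (SE; adjusted p = 0.985 in limma). H2-D1, the other classical heavy chain measured, stood at 835, 799 and 818 FPKM with CTLA4-Ig and at 727, 795 and 874 with control IgG. Here too the lowest and highest values were both controls, and the log2 fold change was 0.04 ± 0.08 (adjusted p = 0.972). B2m, the light chain shared by all class I molecules, stood at 1937, 2002 and 2204 FPKM with CTLA4-Ig and at 1588, 2097 and 2161 with control IgG. Control library 1 was the low value and the other 5 overlapped, with a log2 fold change of 0.08 ± 0.13 (adjusted p = 0.947) that was -0.06 without that library.

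Within a library, H2-K1 was at 0.562 to 0.625 of H2-D1 with CTLA4-Ig against 0.605 to 0.633 with control IgG. B2m was at 1.49 to 1.66 times the sum of both heavy chains with CTLA4-Ig against 1.35 to 1.64 times with control IgG. A single scale factor per library nearly cancels in such ratios. On the log2 scale the ratio of H2-K1 to H2-D1 was -0.76 ± 0.08 against -0.70 ± 0.03 (SD, n = 3; two-sided exact permutation p = 0.3). That of B2m to the heavy chains was 0.65 ± 0.08 against 0.58 ± 0.14 (SD, n = 3; exact permutation p = 0.6). With 3 against 3 the smallest possible p is 0.1. After quantile normalization, which is not a single factor, the differences between groups were -0.02 and 0.11, against -0.06 and 0.07 as deposited.

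The transporter genes were nearly equal in level, and of these Tap2 was higher in each CTLA4-Ig library than in any control. Tap2 stood at 40.1, 46.4 and 44.3 FPKM with CTLA4-Ig and at 36.4, 37.1 and 39.3 with control IgG. CTLA4-Ig library 1 lay just above control library 3, so the gap between groups was small. The log2 fold change was 0.21 ± 0.07 (SE; limma unadjusted p = 0.0235, adjusted p = 0.732), and 0.16 to 0.26 when single libraries were left out, with an unadjusted p up to 0.0785. Tap1, its partner, stood at 40.4, 41.4 and 42.2 FPKM with CTLA4-Ig, a narrow range, and at 35.7, 37.9 and 45.9 with control IgG. All CTLA4-Ig values lay between controls 2 and 3, and the log2 fold change was 0.06 ± 0.10 (adjusted p = 0.945).

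Of the loading genes, Pdia3 was lower in each CTLA4-Ig library than in any control. Pdia3, which also folds many other glycoproteins, stood at 235, 220 and 210 FPKM with CTLA4-Ig and at 256, 255 and 239 with control IgG. The nearest values, CTLA4-Ig library 1 and control library 3, were close. The log2 fold change was -0.18 ± 0.06 (SE; limma unadjusted p = 0.0306, adjusted p = 0.751), with -0.22 to -0.14 when single libraries were left out and an unadjusted p up to 0.0916. Tapbp, which bridges the transporter and the empty class I molecule, stood at 74.9, 66.3 and 67.2 FPKM with CTLA4-Ig and at 60.0, 68.2 and 77.7 with control IgG. Its CTLA4-Ig values again lay inside the control range, with a log2 fold change of 0.02 ± 0.10 (adjusted p = 0.986). Neutrophil markers lay mostly on the same side as Tap2, with 13 of 16 above 0 and a median log2 fold change of 0.53. Their part in the values of Tap2 and Pdia3 was not tested.

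The immunoproteasome subunits did not pass the test, and their log2 fold changes differed in sign. Psmb8, the chymotrypsin-like subunit that replaces Psmb5, stood at 178, 173 and 166 FPKM with CTLA4-Ig and at 156, 174 and 195 with control IgG. Its log2 fold change was -0.02 ± 0.09 (SE; adjusted p = 0.987 in limma), and the controls bracketed the CTLA4-Ig values. Psmb9, which replaces Psmb6, stood at 117, 124 and 117 FPKM with CTLA4-Ig and at 99.9, 100.5 and 120 with control IgG. Control libraries 1 and 2 were below the rest and control library 3 was among the CTLA4-Ig values, with a log2 fold change of 0.16 ± 0.08 (adjusted p = 0.853) that was 0.25 without control library 3. Psmb10, which replaces Psmb7, stood at 73.6, 58.2 and 60.7 FPKM with CTLA4-Ig and at 70.4, 69.2 and 73.7 with control IgG. CTLA4-Ig libraries 2 and 3 were below the other 4, with a log2 fold change of -0.15 ± 0.09 (adjusted p = 0.883). It was -0.25 without CTLA4-Ig library 1 and -0.09 without CTLA4-Ig library 2.

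**Figure D2:**
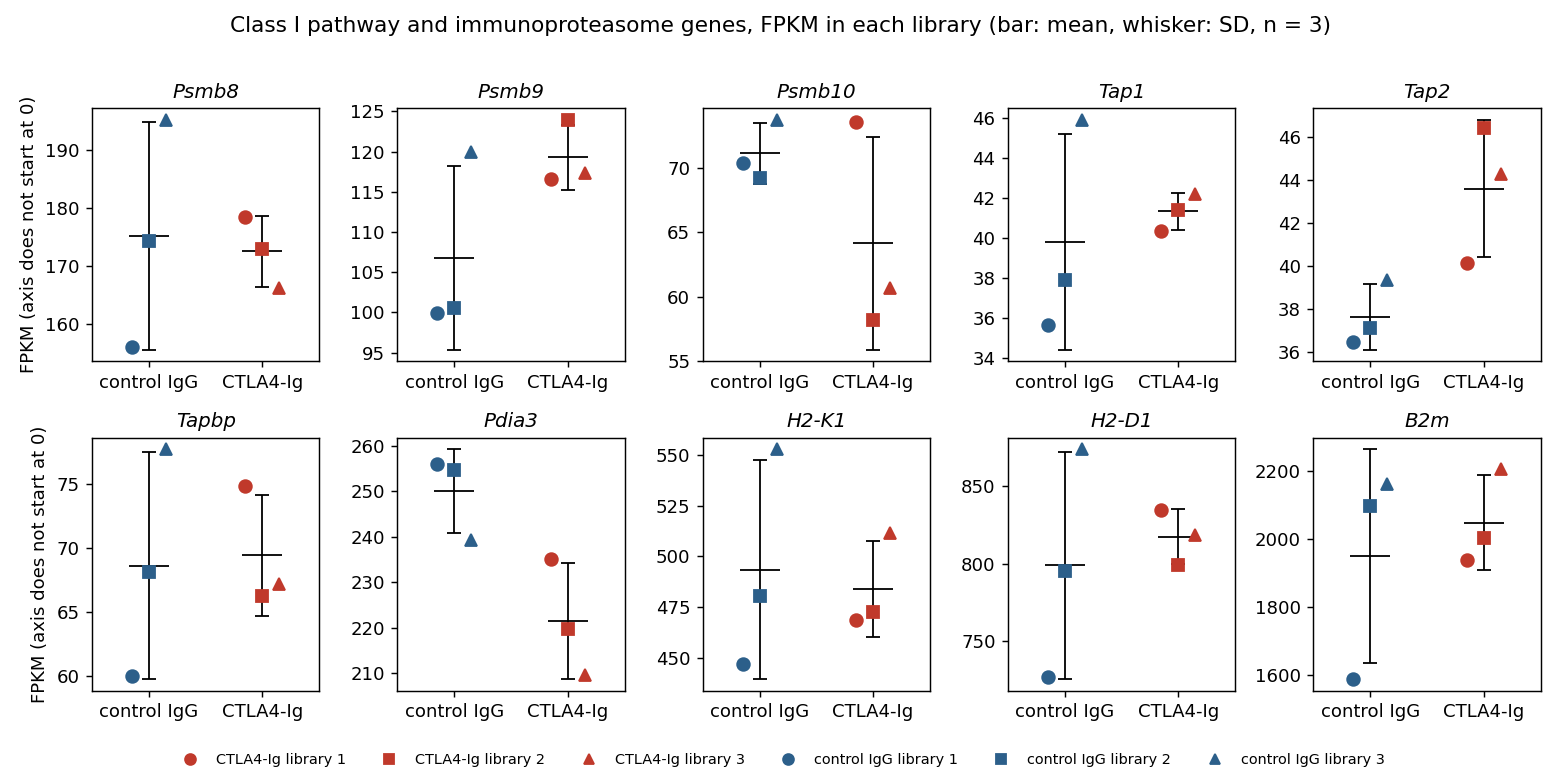
FPKM of each of the 10 members (vertical axes, which do not start at 0) by group, with 1 point per library, the mean as a bar and the SD as a whisker (n = 3). In Tap2 all 3 CTLA4-Ig points lie above the controls, in Pdia3 all 3 lie below, and in the other 8 genes the groups overlap.

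Among the control libraries, each of the constitutive subunits Psmb5, Psmb6 and Psmb7 had a smaller SD of log2 values than the subunit that replaces it. With CTLA4-Ig this held for Psmb7 (SD 0.07 against 0.18 in Psmb10). It did not hold there for Psmb5 (0.06 against 0.05 in Psmb8) or Psmb6 (0.10 against 0.05 in Psmb9). For Psmb5 the log2 fold change was -0.04 ± 0.06 (SE), and Psmb6 and Psmb7 both had 0.00 ± 0.06 in limma. The sign of Psmb6 turned with array weights and that of Psmb7 with quantile normalization. Psmb8 exceeded Psmb5 in all 6 libraries, by 1.30 to 1.35 times with CTLA4-Ig against 1.13 to 1.42 times with control IgG. Psmb9 was at 1.08 to 1.30 times Psmb6 with CTLA4-Ig and at 0.973 to 1.14 times with control IgG, where libraries 1 and 2 were under 1. Psmb10 was under Psmb7 in all 6 libraries, at 0.393 to 0.495 with CTLA4-Ig against 0.467 to 0.493 with control IgG. These are transcript ratios, not amounts of assembled proteasome. The differences of the log2 ratios between groups were 0.02 for Psmb8, 0.16 for Psmb9 and -0.15 for Psmb10. Two-sided exact permutation tests gave p = 1.0, 0.3 and 0.4, and 0.667 was the smallest value after Benjamini-Hochberg adjustment over the 5 ratios.

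**Figure D3:**
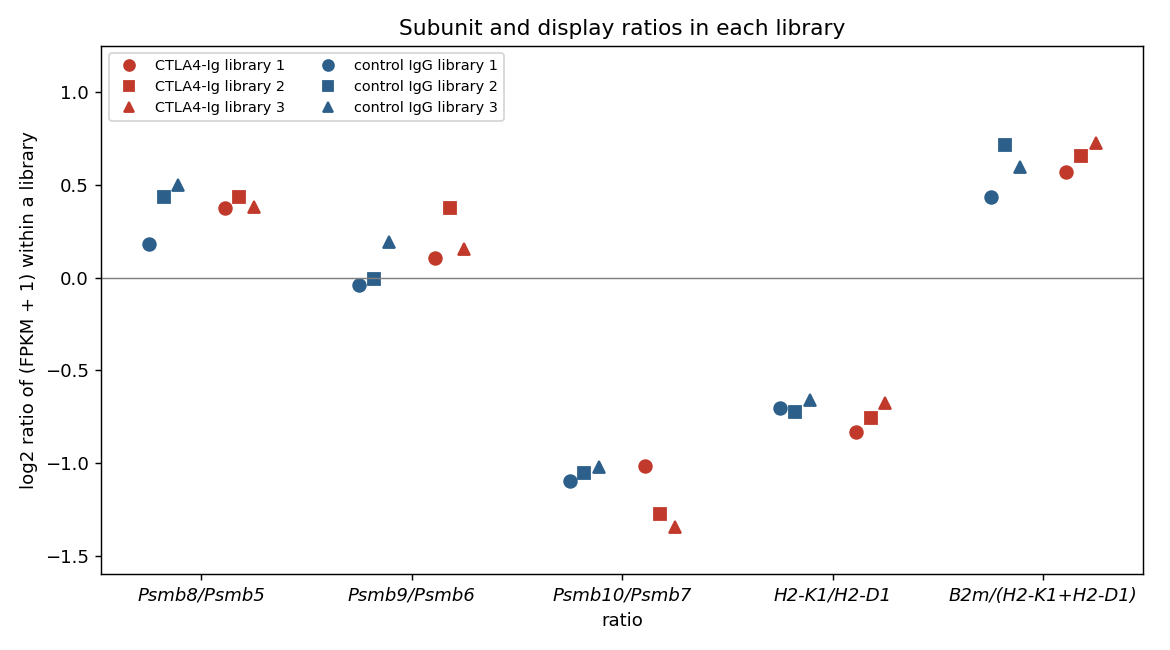
Log2 ratio of (FPKM + 1) within each library (vertical axis) for 3 pairs of immunoproteasome and constitutive subunits and 2 ratios of display genes, with 1 point per library. Psmb8 lies above Psmb5 and Psmb10 below Psmb7 in all 6 libraries, and the groups overlap in all 5 ratios.

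The control libraries differed among themselves in a shared way. Control library 1 had the lowest value of the 6 in 8 of 10 members, all but Psmb10 and Pdia3, against 24.5% of all genes tested. Control library 3 had the highest in 6 (Psmb8, Psmb10, Tap1, Tapbp, H2-K1 and H2-D1), against 16.2%. Both held in 5 (Psmb8, Tap1, Tapbp, H2-K1 and H2-D1), against 6.17%. The SD of log2 values was larger in controls than in CTLA4-Ig libraries in 7 of 10, all but Psmb10, Tap2 and Pdia3, against 55.3% of all genes. Relative to each gene's mean, the median of the 10 members was -0.15 in control library 1, -0.02 in control library 2 and 0.13 in control library 3 on the log2 scale. It was 0.02, -0.01 and 0.04 in CTLA4-Ig libraries 1, 2 and 3. Over all genes the same median stayed between -0.00415 and 0.00433 in the 6 libraries. Without control library 1, 2 of the 10 members had a log2 fold change above 0, with a median of -0.06. Without control library 3, 8 did, with a median of 0.11.

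**Figure D4:**
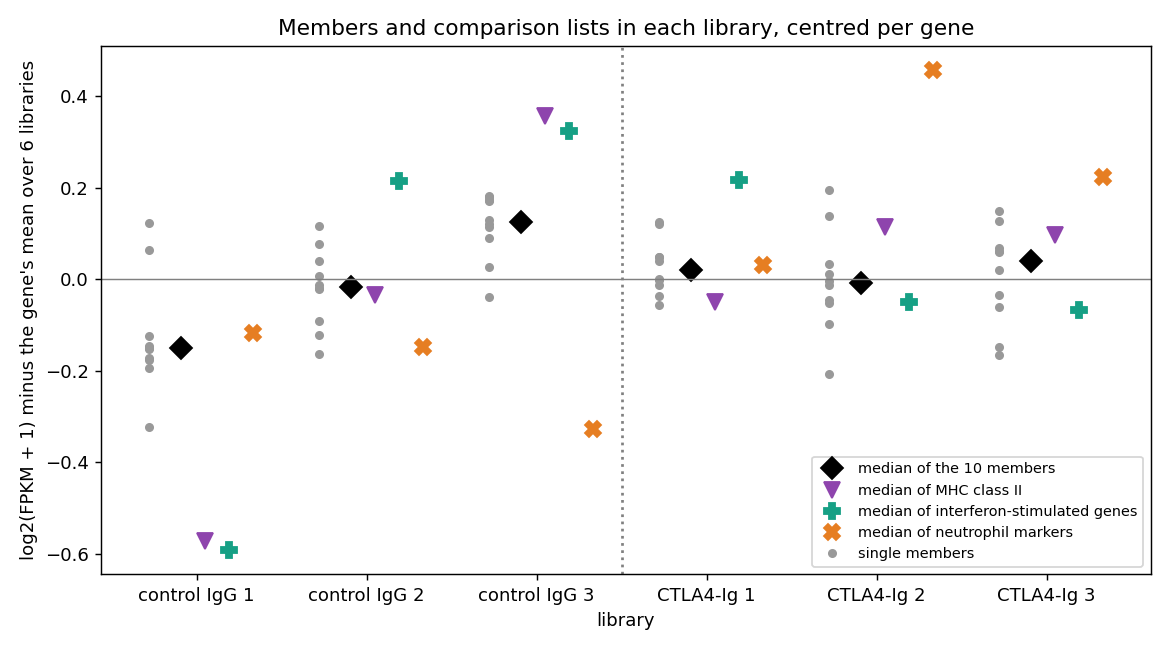
Log2(FPKM + 1) minus each gene's mean over 6 libraries (vertical axis) in each library, with small points for the 10 members and large symbols for medians of the members, MHC class II genes, interferon-stimulated genes and neutrophil markers. The members, class II and interferon-stimulated medians are lowest in control library 1 and highest in control library 3, while the neutrophil median is lowest in control library 3.

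The medians of MHC class II genes and of interferon-stimulated genes had the same extremes with a wider spread. The median of 10 class II genes was -0.57 in control library 1 and 0.36 in control library 3, and it was -0.05 to 0.11 with CTLA4-Ig. That of 31 interferon-stimulated genes was -0.59 in control library 1 and 0.32 in control library 3, and it was -0.07 to 0.22 with CTLA4-Ig. The log2 range over the controls had a median of 0.29 in the members, 0.93 in class II, 0.96 in interferon-stimulated genes and 0.21 over all genes. Over the CTLA4-Ig libraries these were 0.15, 0.34, 0.40 and 0.19. By single genes, control library 3 was highest in 8 of 10 class II genes and in only 18 of 31 interferon-stimulated genes. Control library 1 was lowest in 9 of 10 class II genes and 29 of 31 interferon-stimulated genes. Dendritic cell markers, which share Bst2 with the interferon list, were lowest there in 8 of 9, and their sum was 140 FPKM against 148 to 205 in the other 5. Bst2 made up 63.2 FPKM of that sum in control library 1, against 88.2 to 124 FPKM elsewhere. The remaining marker of the 9, Flt3, was highest in control library 1, at 46.6 FPKM against 15.8 to 24.2. The part of cell composition in the order of the controls was not tested.

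The genes whose pattern over the 6 libraries was most like the mean of the 10 members were found by Pearson's r among 8449 other genes averaging 5 FPKM or more. The first 8 were Gamt (r = 0.999), Ifnar2 (0.990), Pea15a (0.987), H2-T23 (0.986), H2-DMb1 (0.981), Ppfia4 (0.977), Haao (0.977) and Xpot (0.975), and the next gene had 0.973. With 6 libraries and so many genes, such values describe the order only and carry no test. Ifnar2, a chain of the type I interferon receptor, stood at 99.2, 96.6 and 94.1 FPKM with CTLA4-Ig and at 81.0, 93.4 and 109.8 with control IgG. H2-T23, the class Ib heavy chain Qa-1, stood at 133, 123 and 124 FPKM with CTLA4-Ig and at 103, 125 and 146 with control IgG. In both, control library 1 was lowest and control library 3 highest.

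Other genes of the class I pathway are given by their counts. Limma called 0 in each of the lists that follow. Over all genes tested, 47.7% were above 0, 1.98% were lower at an unadjusted limma p under 0.05 and 5.69% were lower without overlap. Of 7 other loading genes, 6 were below 0 with a median log2 fold change of -0.15, and 1 had an unadjusted p under 0.05. That was Canx, the chaperone calnexin that holds new heavy chains, at 93.8, 91.5 and 84.7 FPKM with CTLA4-Ig against 98.6, 103.4 and 97.6 with control IgG. All 3 CTLA4-Ig libraries were below the controls, with a log2 fold change of -0.15 ± 0.06 (SE; limma unadjusted p = 0.0420, adjusted p = 0.801). Calr, the chaperone calreticulin of the loading complex, had -0.21 ± 0.09 (adjusted p = 0.836) and the isomerase Pdia4 -0.22 ± 0.14 (adjusted p = 0.890), with overlapping libraries.

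Of 7 peptide trimming genes 6 were below 0, with a median of -0.08 and 1 at an unadjusted p under 0.05. This was Thop1, an oligopeptidase of the cytosol, at 6.19, 5.68 and 5.17 FPKM with CTLA4-Ig against 7.91, 6.50 and 6.87 with control IgG. The groups did not overlap, and the log2 fold change was -0.28 ± 0.10 (SE; limma adjusted p = 0.751). Lap3, a leucine aminopeptidase, had -0.17 ± 0.09 and Lnpep, an endosomal aminopeptidase of cross-presentation, -0.15 ± 0.09. Of 7 proteasome activators and assembly factors 6 were below 0, with a median of -0.04 and 0 at an unadjusted p under 0.05. Psmg1, an assembly chaperone, had -0.18 ± 0.10, Pomp, which helps to build the immunoproteasome, -0.09 ± 0.06, and the activator Psme4 -0.08 ± 0.06. Lnpep and Psme4 were lower with no overlap between groups, as were 5.69% of all genes tested.

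Of the 21 other class I heavy chain genes listed in the files, 16 passed the filter, 12 of them above 0 with a median of 0.04, and 0 had an unadjusted p under 0.05. H2-T9 had a log2 fold change of -0.23 ± 0.13, H2-Q10 0.40 ± 0.23 and H2-K2 0.27 ± 0.19 (SE). Heavy chain genes form a multigene family whose members resemble each other, and shared words were not counted for these 3, so their values are uncertain. Without control library 1, 5 of the 16 were above 0, with a median of -0.07. Of 16 regulators of class I transcription 13 were above 0, with a median of 0.02 and 0 at an unadjusted p under 0.05. Leaving out control library 1 left 4 of the 16 above 0, with a median of -0.05, and leaving out CTLA4-Ig library 1 left 8. Nlrc5, the transactivator of class I genes, stood at 4.83, 4.10 and 4.38 FPKM with CTLA4-Ig against 4.36, 5.55 and 7.03 with control IgG. Control library 3 was the high value, and the log2 fold change was -0.27 ± 0.15 (SE; limma adjusted p = 0.870). It was -0.13 without that library and -0.42 without control library 1. Irf1, an interferon-induced activator of class I genes, had 0.13 ± 0.08 and Nfyb, a subunit of the CCAAT-binding factor, 0.09 ± 0.08. Of 4 interferon receptor genes 3 were below 0, with -0.11 ± 0.07 for Ifngr1, -0.09 ± 0.07 for Ifnar1 and -0.06 ± 0.07 for Ifngr2.

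Of the 10 class II genes 9 were above 0, with a median of 0.16, and of 31 interferon-stimulated genes 19 were, with a median of 0.06. None of either had an unadjusted p under 0.05. These directions turned without control library 1, where 2 of the 10 class II genes were above 0, with a median of -0.13, and 4 of the 31 interferon-stimulated genes, with a median of -0.29. Without CTLA4-Ig library 1, 12 of the 31 were above 0, with a median of -0.04. Without control library 3, 9 of 10 class II genes were above 0 with a median of 0.34, and 28 of 30 interferon-stimulated genes with a median of 0.23. H2-DMb2, a chain of the class II peptide exchanger, had -0.19 ± 0.16 and H2-Oa, of its inhibitor, 0.16 ± 0.14 (SE). Gbp5, an interferon-induced GTPase, had -0.34 ± 0.18 and Cmpk2 0.16 ± 0.11.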

How the data were processed

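The data were 6 tables of FPKM, deposited by the authors with 1 value per gene name. Per the submitters' processing notes, the tools were Cuffnorm 2.2.1, SAMtools 0.1.19, Bowtie2 2.2.3 and TopHat2 2.0.13, with mm10. The sources used here give no settings, annotation or strand use. Per the labels' protocols, RNA was extracted with miRNeasy and libraries made with a stranded TruSeq mRNA kit.

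Titles gave the replicate numbers and the treatment label the groups. Relative depth came from the ratios at which low values of 2 libraries pile up. Absolute depth came from 213 genes above 0 in 1 library, each taken to hold 1 fragment. Of 10958 low values scaled by relative depth, 73.0% were whole multiples (within 0.02) of the same gene's lowest value above 0. No counts were rebuilt. Limma 3.58.1 (R 4.3.3, with a trend) was run on log2(FPKM + 1) of the 10865 genes averaging 1 FPKM or more, with Benjamini-Hochberg adjustment over all of them. All 10 members passed this filter. Ratios within libraries were compared by exact permutation. The test was checked on simulated data.

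The members and lists were chosen with earlier results of these data known, so lists are given as counts and medians. Of 200 listed genes 195 were matched, 2 by an older symbol. Besides the members, the text names up to 3 genes per pathway list by smallest unadjusted p (2 for class II and interferon-stimulated genes), the constitutive subunits, Nlrc5, Irf1 and the 8 genes most like the members. A further gene of that rule is not reported here. Csf1r, Tnfrsf11a, Lyz2, Bst2, Flt3, S100a8, S100a9, Elane, Mpo, Prtn3, Zbtb22, Catsper2 and Gm20496 were added afterwards. Python 3.11.15, pandas 2.3.3, numpy 2.4.6, Biopython 1.88 and matplotlib 3.10.9 were used. The fit was repeated leaving out each library, with a replicate block, array weights, a robust prior or no trend, after quantile or median-of-ratios scaling, with a filter at 5 FPKM or none, and with pseudocounts of 0.5 and 0.1.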

Additional observations from a re-analysis of the deposited data

How the results depend on the processing

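No member passed adjustment in limma under any of the 10 other settings or with any library left out. Tap2 and Pdia3 kept an unadjusted p under 0.05 in those 10 settings, but not without CTLA4-Ig library 2 or 3 or control library 1 or 2. Psmb10 also reached it without CTLA4-Ig library 1, and Psmb9 and Tap1 without control library 3. The number of genes called was 0 to 6 with single libraries left out: Mir5113 and Snora43 without CTLA4-Ig library 1, Mir135a-1 without 2, Gm9781, Mir1896, Mir682, Snord15b, Snord16a and Snord89 without 3, Mirlet7d without control library 2, and Snora69 and Snord32a without 3. These calls came with 2 libraries against 3, and with all 6 libraries no gene was called in any setting. All but Gm9781 are microRNA or small nucleolar RNA genes by name, while the libraries were made with an mRNA kit. The 659 genes with an unadjusted limma p under 0.05 became 338 without CTLA4-Ig library 2. The members above 0 numbered 2 (without control library 1) to 8 (without control library 3). With libraries left out, the difference of log2 ratios was -0.0724 to 0.0881 for Psmb8 to Psmb5, -0.00585 to 0.134 for B2m to the heavy chains, -0.0989 to -0.022 for H2-K1 to H2-D1, -0.253 to -0.0864 for Psmb10 to Psmb7 and 0.0818 to 0.237 for Psmb9 to Psmb6. The sign of 16 of 43 named genes turned in at least 1 setting.

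With array weights the log2 fold change was 0.00665 for Psmb6, -0.0023 for Gamt, -0.0069 for Ifnar2, -0.067 for Pea15a, -0.022 for H2-T23, -0.00902 for H2-DMb1, -0.0491 for Ppfia4, -0.017 for Haao, -0.022 for Xpot, -0.012 for Tapbp and -0.020 for B2m, and the cause was not tested. With quantile normalization Psmb7 had -0.022. With single libraries left out, the range was -0.058 to 0.16 for B2m, -0.029 to 0.10 for H2-D1, -0.091 to 0.062 for H2-K1, -0.097 to 0.064 for Psmb8, -0.013 to 0.16 for Tap1 and -0.069 to 0.11 for Tapbp. It was -0.038 to 0.054 for Psmb6, -0.032 to 0.035 for Psmb7, -0.10 to 0.27 for Gamt, -0.068 to 0.15 for Ifnar2 and -0.17 to 0.20 for Pea15a. It was -0.092 to 0.16 for H2-T23, -0.086 to 0.22 for H2-DMb1, -0.13 to 0.16 for Ppfia4, -0.11 to 0.25 for Haao and -0.046 to 0.049 for Xpot.

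Libraries of the same replicate number did not deviate together (correlations -0.154, -0.0942 and -0.0235). With a replicate block limma called 0 genes, 619 had an unadjusted p under 0.05, and the smallest adjusted p of a member was 0.841. Depth is 1 limit on the differences that can be seen, with an estimated counting error up to 4.05% in Psmb10. The spread between the 6 libraries was larger in that gene, with a coefficient of variation of 9.81%.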
